A study of Homo sapiens with 4 samples.

Results

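The genes described here handle cellular iron: TFRC, SLC11A2 and MFI2 of iron uptake, FTH1, FTL and NCOA4 of iron storage and its release, SLC40A1 of iron export, ACO1 and IREB2 of iron sensing, and HMOX1, which frees iron from heme. They are 10 genes among 56620 symbols of the expression table, found by an exact match of the gene symbol. MFI2 is the symbol the table uses for melanotransferrin, now MELTF. The set was chosen from knowledge of the pathway with earlier results of this table in view, the large difference of MFI2 among them, so the values below are a description and carry no test. The induced samples are cells of BJ-5ta, a human foreskin fibroblast line immortalised with telomerase, in a clonal derivative with a FOXA2 gene under doxycycline control, given doxycycline at 0.5 µg/ml. The uninduced samples are the same derivative without doxycycline. Both were grown in MEM-Alpha with serum, basic fibroblast growth factor, hygromycin B and puromycin, and each group has 2 samples. The protocol also names an overnight arrest in G1 with mimosine at 200 µM, a plant amino acid that binds iron, and the labels do not say for which cultures. The model is a clonal line, and with no doxycycline-treated sample lacking the transgene among those used here, induction and drug exposure cannot be told apart.

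Most cells take up iron as transferrin bound to the transferrin receptor, and the divalent metal transporter then moves it from the endosome into the cytosol. Iron that is not used is stored in ferritin, a shell of heavy and light chains, or leaves the cell through ferroportin. A pair of RNA-binding proteins, the iron regulatory proteins encoded by ACO1 and IREB2, tie these steps together: in iron-poor cells they bind a hairpin called the iron-responsive element. Bound in the 5′ untranslated region the hairpin blocks translation, as for ferritin and ferroportin, and bound in the 3′ untranslated region it protects the transferrin receptor mRNA from decay. RNA abundance, the quantity measured here, therefore follows this control for the receptor more closely than for ferritin.

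The hairpins are shown because the sensors act through them, and the rule used here found them in 4 of these RNAs. In GENCODE release 29 transcripts, a site was counted where the loop letters CAGTG, followed by any base but G, had all 5 bases on either side able to pair (G with T allowed), with a C directly before the stem. Such sites lay in untranslated regions of 4 of the 10 genes, against 126 of 19684 protein-coding genes, or 0.64%. These 4 genes encode ferritin, ferroportin and the transferrin receptor, already known to carry the hairpin, so the count is no test. Each is printed 5′ to 3′ on the strand of its gene, with the unpaired C and the loop in capitals, and positions are in GRCh38.
FTH1, 5′ untranslated region, chr11:61967573-61967602, minus strand: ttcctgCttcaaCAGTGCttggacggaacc
FTL, 5′ untranslated region, chr19:48965335-48965364, plus strand: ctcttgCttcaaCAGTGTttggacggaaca
SLC40A1, 5′ untranslated region, chr2:189580660-189580689, minus strand: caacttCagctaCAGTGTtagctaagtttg
TFRC, 3′ untranslated region, chr3:196050978-196051007, minus strand: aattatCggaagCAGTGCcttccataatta
TFRC, 3′ untranslated region, chr3:196050574-196050603, minus strand: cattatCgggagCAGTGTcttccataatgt
TFRC, 3′ untranslated region, chr3:196050509-196050538, minus strand: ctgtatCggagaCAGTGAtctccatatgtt
TFRC, 3′ untranslated region, chr3:196050462-196050491, minus strand: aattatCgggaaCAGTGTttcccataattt
The ferritin chains share the letters of the stem and differ in the last base of the loop, and TFRC has 4 sites that met the rule. SLC11A2, of which some transcripts carry a known 3′ element, had the loop letters at 9 places in its untranslated regions and no site that met the pairing rule, so the rule does not find every known element.

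FOXA2 itself was at 104 FPKM (deposited interval 50.2 to 158) in induced cells, against 4.82 FPKM (0.526 to 9.12) in uninduced cells. FPKM counts fragments relative to transcript length and to the mapped total, so levels can be compared between genes. For each gene and group the table gives a single value between 2 confidence bounds. Samples have no values of their own, so a difference has no replicate check, and p-values and SDs are not given. Total reads are not in the table. The most frequent ratio of induced to uninduced low values was 0.86, in 131 of 2973 genes; if it reflects single fragments, sequencing of the induced column was 1.16 times as deep.

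A gene is said here to rise or fall when the interval of the induced column lies wholly above or below that of the uninduced column. By this criterion MFI2 alone of the 10 genes rose and ACO1 alone fell. Of the 14319 rows at 1 FPKM or more in at least 1 column, 0.726% rose and 0.454% fell. On the log2(FPKM + 1) scale MFI2 and SLC40A1 were at least 2-fold higher in induced cells and ACO1 and TFRC at least 2-fold lower, where 9.2% of kept rows were higher and 6.03% lower by that much. The other 6 genes differed by -0.54 to 0.33 log2 units. The median of the 10 genes was 0.03, and that of all kept rows 0.05. When FPKM sums were made equal, the median was 0.22 for the 10 genes and 0.23 for all kept rows, and relative to that shift MFI2, SLC40A1, TFRC and ACO1 each still differed at least 2-fold. All 10 genes passed the filter on low values, but MFI2 passed through the induced column alone, so its difference had to be positive. These are bulk RNA values, in which fewer cells of a kind and less RNA per cell cannot be told apart.

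**Figure D1:**
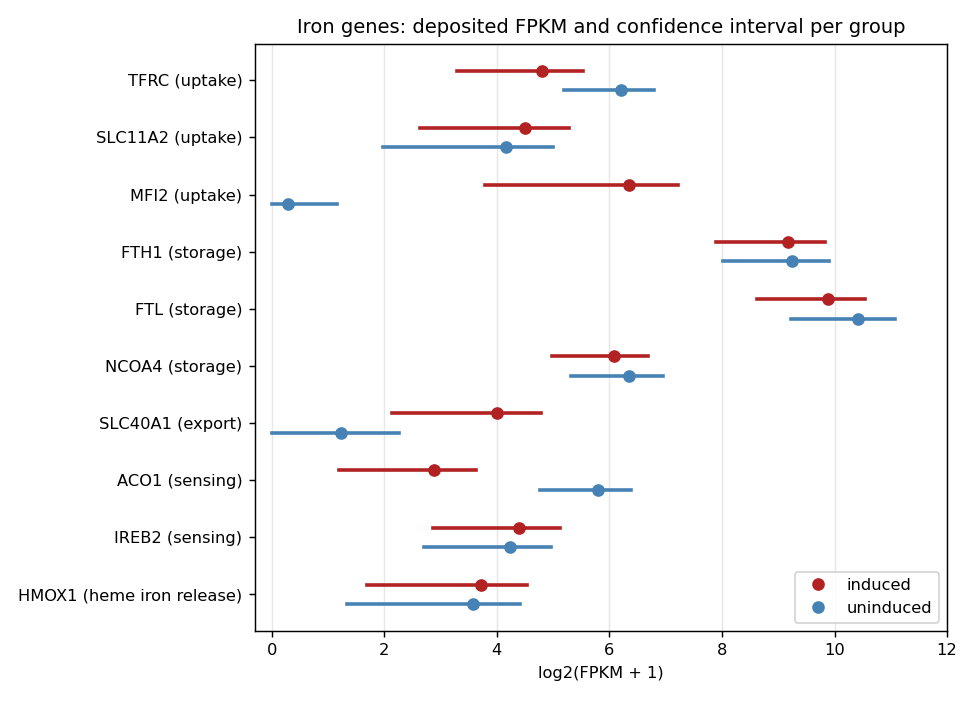
FPKM of the 10 genes in the induced (red) and uninduced (blue) columns on a log2(FPKM + 1) axis; points are the deposited values and bars the deposited confidence intervals, whose level is not stated. The bars of MFI2 and ACO1 do not meet, those of SLC40A1 meet between 3.37 and 3.77 FPKM, and those of FTH1 and IREB2 overlap over most of their length.

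Of the uptake genes, MFI2 alone passed the criterion. MFI2 (ENSG00000163975, hg19 chromosome 3, 196715492 to 196756687) encodes melanotransferrin, a relative of transferrin that binds iron and is anchored to the cell surface. It was at 80.4 FPKM (interval 12.8 to 148) in induced cells, against 0.225 FPKM (0 to 1.23) in uninduced cells. The uninduced column is thus near the floor of detection and the induced one is at rank 1234 of the kept rows. MFI2 rose by 6.05 on the log2 scale, with a ratio of 10.4 between the nearest bounds, and 0.0419% of kept rows had a larger difference. The MFI2 row shares its locus with the antisense gene MFI2-AS1, which was at 5.83 FPKM (0 to 82.8) in induced cells and 2.91 FPKM (0 to 7.60) in uninduced cells. The library kit does not keep strand, so reads of the pair cannot be told apart where they overlap.

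TFRC, the transferrin receptor (ENSG00000072274, hg19 chromosome 3, 195754054 to 195809060), was at 27.1 FPKM (interval 8.85 to 45.3) in induced cells, against 72.8 FPKM (35.5 to 110) in uninduced cells. The intervals met between 35.5 and 45.3 FPKM, so it did not pass the criterion, with a log2 difference of -1.40 that was exceeded downwards by 2.86% of kept rows. A looser criterion asks that the difference of the values exceed its own combined interval. TFRC was lower by it and SLC40A1 higher, and it was met by 1.26% of kept rows upwards and 1.11% downwards. In induced cells MFI2 had 2.97 times the FPKM of TFRC, with overlapping intervals. In uninduced cells TFRC had 324 times that of MFI2, with separate intervals. SLC11A2, the divalent metal transporter DMT1, was at 21.5 FPKM (5.21 to 37.8) in induced cells and 16.8 FPKM (2.92 to 30.8) in uninduced cells, and the intervals shared 5.21 to 30.8 FPKM. The 3 uptake genes together had 129 FPKM in induced cells and 89.9 FPKM in uninduced cells. MFI2 made up 80.4 FPKM of the induced and 0.225 FPKM of the uninduced sum. Without MFI2 the sum was lower in induced than in uninduced cells. The locus of TFRC also holds AC024937.2 and RNU7-18P, at most 0.146 FPKM in either column, and that of SLC11A2 a U6 copy listed at 0 in both.

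Ferritin RNA was among the most abundant in both columns. FTL, the light chain, was at 945 FPKM (interval 392 to 1498) in induced cells, rank 12 of the kept rows, against 1375 FPKM (595 to 2155), rank 8, in uninduced cells. FTH1, the heavy chain with the ferroxidase that oxidises incoming iron, was at 574 FPKM (237 to 910) in induced cells and 605 FPKM (259 to 950.0) in uninduced cells. Neither passed the criterion, and the light to heavy chain ratio was 1.65 in induced cells and 2.27 in uninduced cells. The log2 difference of FTL was -0.54 and that of FTH1 -0.08, and the sign of FTH1 turned with the scaling, to 0.12 with equal FPKM sums and 0.41 after quantile normalization. Of the 215 genes with a mean of at least 300 FPKM, 38 had a difference above that of FTH1 and 84 above that of FTL, and their median was -0.68, so both ferritin genes lay above the median of comparably abundant genes. The table also lists 45 rows of ferritin pseudogenes, of which 33 were at 0 in both columns. Their sum was 4.34 FPKM in induced cells and 3.37 FPKM in uninduced cells, so few fragments were assigned to these near copies. The highest were FTLP3, at 1.47 and 0.997 FPKM, FTH1P15, at 0.909 and 0.614 FPKM, and FTH1P23, at 0.483 and 0.470 FPKM, induced before uninduced. The FTH1 locus in the table spans BEST1, which was at 1.39 FPKM in induced and 0.678 FPKM in uninduced cells.

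NCOA4, the receptor that delivers ferritin to lysosomes so that its iron is released, was at 66.5 FPKM (interval 30.5 to 102) in induced cells and 80.8 FPKM (39.0 to 123) in uninduced cells. Its intervals overlapped from 39.0 to 102 FPKM. A second row of NCOA4, on a patch of the assembly, was listed at 0 in both columns.

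Ferroportin RNA was higher in induced cells, just short of the criterion. SLC40A1 (ENSG00000138449, hg19 chromosome 2, 190425305 to 190448484) encodes ferroportin, the exporter of iron and the receptor of the hormone hepcidin. It was at 15.0 FPKM (interval 3.37 to 26.6) in induced cells, against 1.33 FPKM (0 to 3.77) in uninduced cells, a ratio of 11.3. The intervals overlapped by 0.399 FPKM, and 0.859% of kept rows had a log2 difference larger than its 2.78. With equal FPKM sums the intervals separated and SLC40A1 rose. TFRC had 1.80 times the FPKM of SLC40A1 in induced cells, with overlapping intervals, and 54.7 times in uninduced cells, with separate ones.

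The sensors differed from each other. ACO1 (ENSG00000122729, hg19 chromosome 9, 32384618 to 32454767) encodes the cytosolic aconitase, which becomes iron regulatory protein 1 when it loses its iron-sulfur cluster. It fell to 6.33 FPKM (interval 1.29 to 11.4) in induced cells, against 54.5 FPKM (26.3 to 82.7) in uninduced cells. The uninduced value was 8.61 times the induced one, or 2.32 times between the nearest bounds, and 0.189% of kept rows had a lower log2 difference than its -2.92. IREB2, iron regulatory protein 2, which is degraded in iron-rich cells, was at 20.0 FPKM (6.25 to 33.7) in induced cells and 17.9 FPKM (5.50 to 30.3) in uninduced cells. ACO1 thus had 0.317 times the FPKM of IREB2 in induced cells and 3.05 times in uninduced cells, though the intervals of the pair overlapped within each column. Their summed FPKM was 26.3 in induced and 72.4 in uninduced cells. No other row of the table overlaps the ACO1 locus, and the locus of IREB2 also holds RP11-650L12.1, listed at 0 in both columns.

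HMOX1, heme oxygenase 1, an enzyme induced by heme and oxidative stress, was at 12.2 FPKM (interval 2.25 to 22.2) in induced cells and 10.9 FPKM (1.53 to 20.3) in uninduced cells. The intervals shared 2.25 to 20.3 FPKM, and the log2 difference was 0.15.

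**Figure D2:**
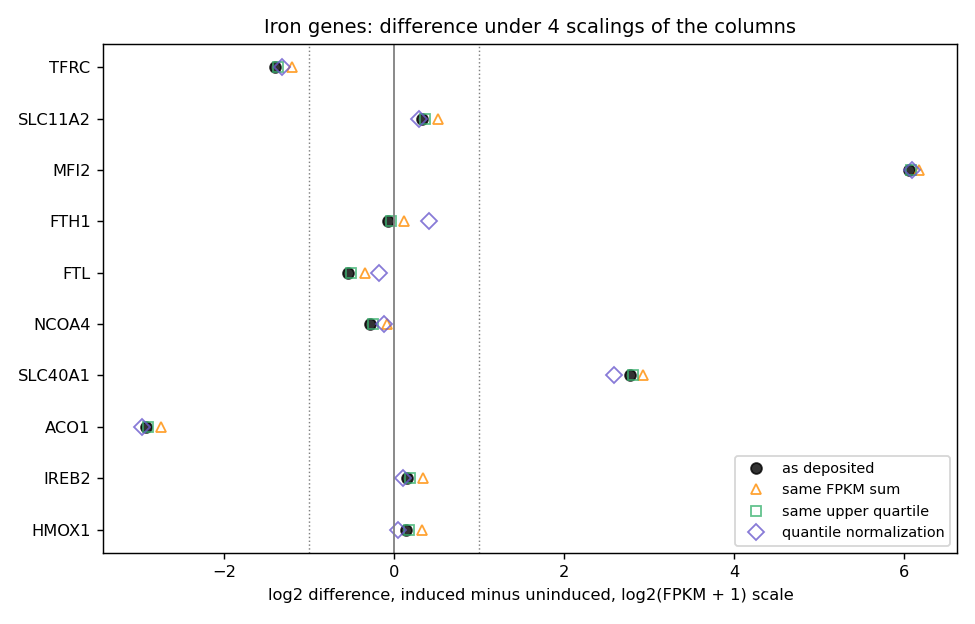
Log2 difference (induced minus uninduced, log2(FPKM + 1) scale) of each of the 10 genes as deposited, with the columns scaled to the same FPKM sum or the same upper quartile, and after quantile normalization; dotted lines mark 2-fold. MFI2, SLC40A1, TFRC and ACO1 stay beyond the dotted lines under all 4 scalings, and FTH1 lies on both sides of 0.

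The order of the levels was in part the same in both columns. In induced cells FTL was highest, followed by FTH1, MFI2, NCOA4, TFRC, SLC11A2, IREB2, SLC40A1, HMOX1 and ACO1. In uninduced cells the order was FTL, FTH1, NCOA4, TFRC, ACO1, IREB2, SLC11A2, HMOX1, SLC40A1 and MFI2. The only neighbours in either order with separate intervals were FTH1 and the next gene, MFI2 in induced and NCOA4 in uninduced cells. MFI2 came next in order after FTH1 in induced cells, though at 80.4 FPKM against 574 FPKM, and last in uninduced cells. ACO1 stood last in induced cells and in the middle in uninduced cells. The intervals were wide, with upper bounds a median of 72.2% above the value in induced and 63.2% in uninduced cells, so an overlap does not show that a level stayed the same.

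**Figure D3:**
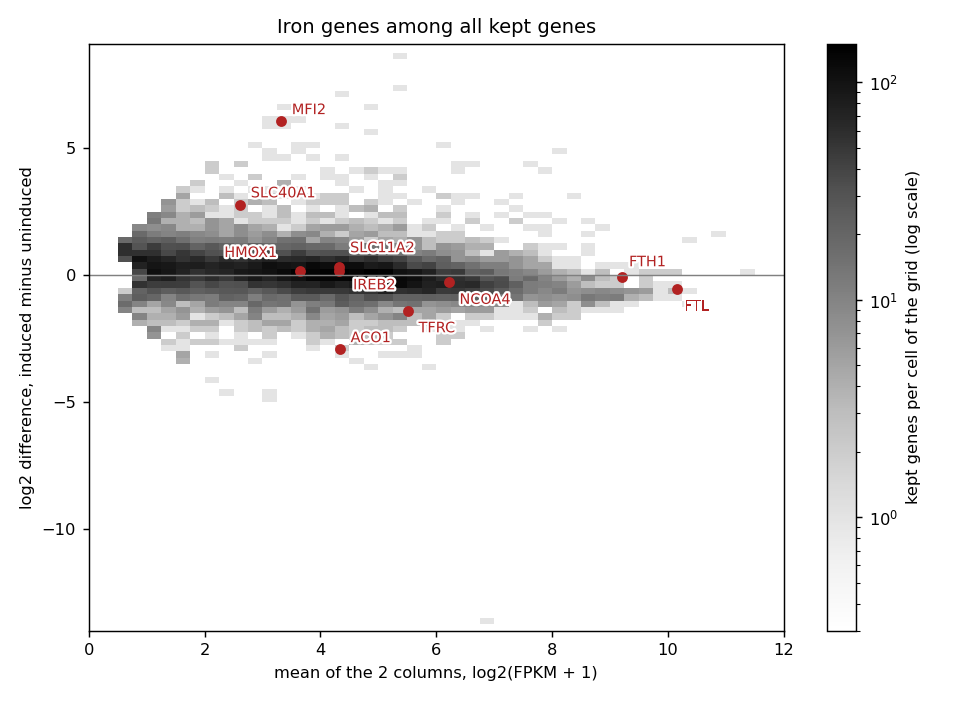
Each of the 10 genes (red) over the density of all 14319 kept rows (grey, log colour scale), with the mean of both columns on the x axis and the log2 difference, induced minus uninduced, on the y axis. MFI2 and ACO1 lie at opposite edges of the cloud, SLC40A1 near its upper edge, and FTH1 and FTL at its far right.

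The genes nearest to MFI2 in the pair of log2(FPKM + 1) values were named by that distance over the 2 columns. They were MX2, an interferon-induced antiviral GTPase, at 82.8 FPKM in induced and 0.363 FPKM in uninduced cells, CHRNA1, a muscle acetylcholine receptor subunit, at 70.2 and 0.0819 FPKM, and RSAD2, the antiviral enzyme viperin, at 67.8 and 0.107 FPKM. Their distances from MFI2 were 0.160, 0.263 and 0.283 log2 units.

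Promoter windows from RefSeq (GRCh38.p14, 250 bases before to 50 after a start) were found for 8 of the 10 genes, 13 windows in all, and were searched on both strands for short motifs. The hypoxia response element core ACGTG, bound by HIF factors, was in the windows of TFRC, FTL and MFI2, and in 21.4% of 35116 windows. Against that share, these matches among 13 windows do not set the genes apart. The copy of MFI2 starts 245 bases before its annotated start. The copy of TFRC starts 88 bases before the annotated start and is shown in capitals with its surroundings, on the minus strand.
TFRC, chr3:196082149-196082203: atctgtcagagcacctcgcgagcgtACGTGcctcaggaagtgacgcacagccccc
The FOXA core letters TGTTTAC and TATTTAC were in none of the 13 windows, and in 3.42% and 2.67% of all windows. The interferon-stimulated response element letters GAAANNGAAA were in 1 of 4 SLC11A2 windows and the antioxidant response element letters TGACNNNGC in 1 of 2 NCOA4 windows, against 3.57% and 13.3% of all windows. A match is a string of letters in this window and not a bound site.

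The wider iron machinery was described by lists chosen with earlier results of this table known. Of 82 further genes of iron transport, its control, heme and iron-sulfur clusters, 63 were kept, 0 rose and 0 fell, and the median was -0.14. Of all kept rows 0.726% rose and 0.454% fell, so a count of 0 does not set a list of this size or smaller apart. Among 14 kept genes of uptake and transport, SLC22A17, a receptor of lipocalin 2, was at 40.4 FPKM (interval 16.3 to 64.5) in induced and 18.8 FPKM (5.32 to 32.2) in uninduced cells. SLC39A8, the metal importer ZIP8, was at 11.5 FPKM (2.18 to 20.9) and 5.04 FPKM (0 to 10.3) in the same order. These were the members of that list with a difference of at least 2-fold, and its median was -0.12. Transferrin itself, TF, was at 0.129 FPKM in induced and 0.0333 FPKM in uninduced cells, and the hepcidin gene HAMP was listed at 0 in both. Of 13 genes of export and hepcidin control only 4 were kept, and their median log2 difference was 0.08. FBXL5, which marks IREB2 protein for decay, was at 49.7 FPKM in induced and 43.5 FPKM in uninduced cells. EPAS1, or HIF2A, was at 40.2 FPKM in induced and 49.8 FPKM in uninduced cells.

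No heme or iron-sulfur gene of the lists rose or fell, a count that does not set lists of this size apart from all kept rows. In the list of heme transport and breakdown, with 10 kept genes and a median of 0.26, HPX, the heme-binding hemopexin, was at 0.951 FPKM (interval 0 to 3.50) in induced and 5.63 FPKM (2.35 to 8.90) in uninduced cells. SLC48A1, a lysosomal heme exporter, was at 19.9 FPKM in induced and 8.85 FPKM in uninduced cells, and BACH1, a repressor of HMOX1, at 46.4 and 21.8 FPKM, all with overlapping intervals. Of heme synthesis 10 of 11 genes were kept, with a median of -0.11, led by UROD at 62.9 FPKM in induced and 84.8 FPKM in uninduced cells and UROS at 47.0 and 49.4 FPKM. All 25 genes of iron-sulfur cluster assembly were kept, with a median of -0.18 and a range of -0.64 to 0.61. The most abundant were HSPA9, the mitochondrial chaperone of cluster transfer, at 121.5 FPKM in induced and 121.1 FPKM in uninduced cells, and FAM96B, of cytosolic cluster assembly, at 83.6 and 95.0 FPKM.

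HMOX1, the ferritin chains and ferroportin are also targets of the stress factor NRF2. The 14 further targets had a median of -0.72, with 10 below and 4 above 0, and 0 that rose or fell. The median of all kept rows was 0.05. That of the 215 genes with a mean of at least 300 FPKM was -0.68, with 180 below 0. Whether the abundance of the NRF2 targets bears on their median was not tested. NQO1, a quinone reductase, was at 170 FPKM (interval 68.4 to 271) in induced and 545 FPKM (209 to 881) in uninduced cells, and PRDX1, a peroxiredoxin, at 196 and 418 FPKM. The subunits of the enzyme that starts glutathione synthesis lay on opposite sides. GCLC, the catalytic subunit, was at 73.5 FPKM (14.6 to 132) in induced and 10.9 FPKM (0 to 22.7) in uninduced cells, and GCLM, the modifier, at 16.9 FPKM (0 to 37.2) and 38.8 FPKM (0.761 to 76.9). By the looser criterion GCLC was higher and NQO1 and HPX lower. HPX passed the filter on low values through the uninduced column alone, so its difference had to be negative. Of 14 genes that respond to iron chelation or hypoxia 13 were kept, with a median of -0.05. Of these 0 rose or fell, where 0.726% of all kept rows rose and 0.454% fell. DDIT4, an inhibitor of mTOR signalling, was at 9.28 FPKM in induced and 2.91 FPKM in uninduced cells, and VEGFA, a vascular growth factor, at 48.8 and 21.5 FPKM. NDRG1, a gene known to respond to iron chelators, was at 21.6 FPKM (2.59 to 40.5) and 18.5 FPKM (2.10 to 35.0).

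**Figure D4:**
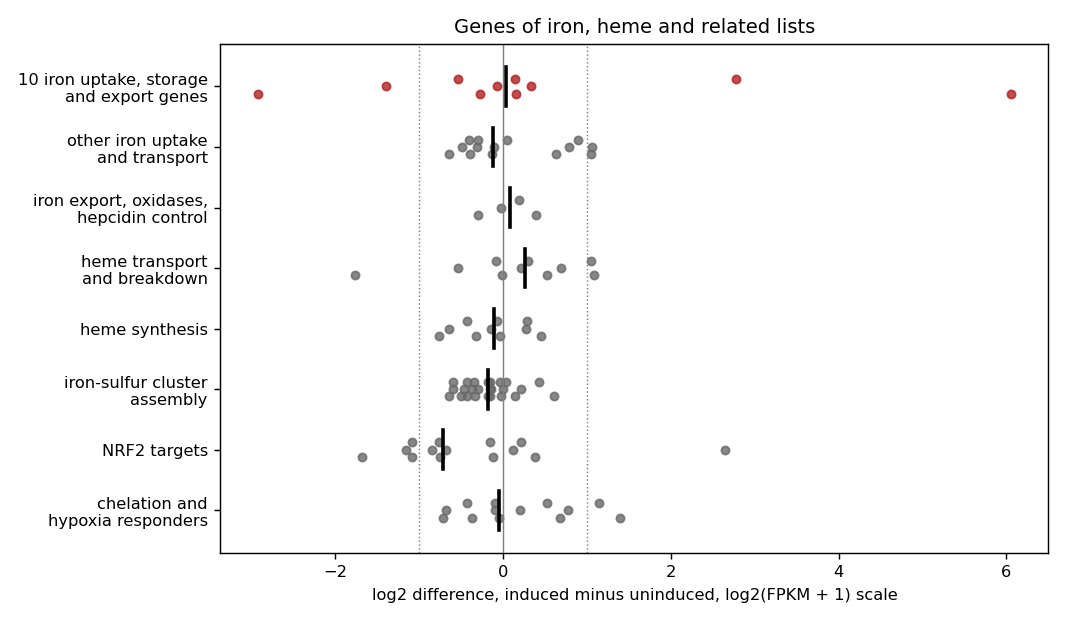
Log2 difference (induced minus uninduced, log2(FPKM + 1) scale) of the 10 iron genes (red) and of the kept genes of 7 further lists (grey), with the list median as a black bar and 2-fold as dotted lines. The 10 genes span -2.92 to 6.05, while iron-sulfur assembly genes lie between -0.64 and 0.61 and most NRF2 targets lie left of 0.

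Marker lists of fibroblasts and of other cells that express these genes were read in both columns. All 10 fibroblast markers were kept, with a summed level of 3044 FPKM in induced and 4912 FPKM in uninduced cells. VIM, COL1A1 and COL1A2 made up most of both sums, and the 215 genes with a mean of at least 300 FPKM had a median log2 difference of -0.68. Of the fibroblast markers FAP, a surface protease, fell to 3.84 FPKM in induced cells, against 36.8 FPKM in uninduced cells. THY1, at 92.5 and 388 FPKM, COL3A1, at 445 and 125 FPKM, and VIM, at 905 and 2098 FPKM, had overlapping intervals. Of the 10 fibroblast markers 3 were higher and 7 lower in induced cells. By at least 2-fold, 2 were higher and 4 lower. MFI2 was first described on melanoma cells, and of 7 melanocyte markers 2 were kept, with a summed level of 5.33 FPKM in induced and 9.44 FPKM in uninduced cells. MITF, at 3.66 FPKM in induced and 8.62 FPKM in uninduced cells, and MLANA, at 0.0236 and 0.0474 FPKM, were lower in induced cells. PMEL, at 1.46 and 0.753 FPKM, TYRP1, at 0.0807 and 0.0204 FPKM, TYR, at 0.0636 and 0 FPKM, and DCT, at 0.0372 and 0 FPKM, were higher. All of these had overlapping intervals, and SOX10 was listed at 0 in both columns. Macrophages are rich in SLC40A1 and HMOX1, and of 6 macrophage markers 3 were kept, with CD163 listed at 0 in both columns. CD14, at 2.15 FPKM in induced and 0.823 FPKM in uninduced cells, and PTPRC, at 1.30 and 0.547 FPKM, were higher in induced cells. So were CD68, a lysosomal protein that fibroblasts also express, at 178 and 94.0 FPKM, and ITGAM, at 0.0898 and 0 FPKM. CSF1R, at 0.211 and 0.468 FPKM, was lower, and all of these had overlapping intervals. The summed level of this list was 182 FPKM in induced and 95.8 FPKM in uninduced cells, nearly all of it CD68, and its part in the SLC40A1 values was not tested. Of 6 hepatocyte markers 2 were kept, with a summed level of 2.68 FPKM in induced and 0.830 FPKM in uninduced cells, APOA1 at 1.21 and 0.102 FPKM, and HNF4A and TTR listed at 0 in both columns. All 6 erythroid markers were listed at 0 in both columns. PMEL, CD14, PTPRC and APOA1 passed the filter on low values through the induced column alone, so their differences had to be positive.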

How the data were processed

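RNA was taken from 2 induced and 2 uninduced samples with a column kit and made into libraries that do not keep strand, per the labels' protocols. The submitters' processing notes name TopHat and the hg19 build; the quantifier is not given in the sources used here. Per the file headers, the deposited table gives FPKM and its confidence bounds for each group, and whether a column combines both samples is not stated. Column names gave the groups; 3 value columns, of 1 further condition, were left out. Widths of 22132 loci equalled gene lengths when starts were counted from 0 (326 when from 1), so 1 was added to each start. For symbols with more than 1 row (NCOA4 and PTPRC here), the most abundant row was taken.

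Python 3.11.15, pandas 2.3.3 and numpy 2.4.6 were used. Rows at 1 FPKM or more in at least 1 column were kept, and each log2 difference, log2(FPKM + 1) in induced less that in uninduced cells, is too small for low genes. The limma test planned for values per sample could not be run. A gene rose or fell when the deposited intervals did not overlap; 3 kept rows with malformed bounds were never called. The looser criterion adds the upper half-widths in quadrature. Tested on simulated data with errors drawn from the interval widths, the non-overlap criterion missed most changed genes. It called unchanged genes about as often as kept rows were called here, so a call is a description and not a test. The genes, the lists, the criterion and the alternatives were chosen with earlier results of these data known. Named beyond the 10 genes are FOXA2, per list the genes that rose or fell or, up to 4, differed at least 2-fold, otherwise the 2 most abundant, the 3 highest ferritin pseudogenes, rows sharing a locus, and the 3 genes nearest to MFI2. TF, HAMP, NDRG1, SOX10, MLANA, PMEL, TYR, TYRP1, DCT, HNF4A, TTR, CD163, PTPRC, CSF1R, ITGAM and the order of levels were added after the values had been seen. Hairpins were read from GENCODE 29 transcripts and promoter windows from RefSeq, both in GRCh38; no position was converted between builds.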

Additional observations from a re-analysis of the deposited data

How the results depend on the processing

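MFI2 rose and ACO1 fell with the same FPKM sum, the same upper quartile and quantile normalization. A pseudocount of 0.1, no filter on low values, a mean of at least 5 FPKM and the interval of the difference were also run, but could not change these calls by their construction. With the same FPKM sum 2 of the 10 genes rose, SLC40A1 being added, their median was 0.22, that of the other iron and related genes turned to 0.0587 (from -0.13 as deposited), 2 of those were at least 2-fold lower (5 as deposited), and FTH1 turned to 0.12. After quantile normalization FTH1 was at 0.41, and 3 of the other genes were at least 2-fold lower. Among rows averaging 5 FPKM or more, 712 were at least 2-fold higher, against 1317 as deposited. By the interval of the difference, 2 of the 10 genes were higher (MFI2, and SLC40A1 with 2.78) and 2 lower (ACO1, and TFRC with -1.40), 1 of the other genes was higher and 2 lower, and of all rows 180 were higher and 159 lower, against 104 and 65. The cause was not tested. No paired analysis was possible because individual samples have no values in the table, and leaving out a replicate was not run for the same reason. With wide intervals and unknown read totals, smaller differences were not detectable.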
